A study of Arabidopsis thaliana with 8 samples.

Results

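The JAZ genes encode the repressors of jasmonate signalling in plants. Their transcripts were followed in roots of Arabidopsis thaliana seedlings before and after exposure to extracellular ATP (eATP). The 10 loci described here are JAZ1 (AT1G19180), JAZ2 (AT1G74950), JAZ3 (AT3G17860), JAZ5 (AT1G17380), JAZ6 (AT1G72450), JAZ7 (AT2G34600), JAZ8 (AT1G30135), JAZ9 (AT1G70700), JAZ10 (AT5G13220) and JAZ12 (AT5G20900). They were taken by locus identifier from the 33544 genes in each deposited table. The set was chosen by family name with its measured responses to eATP in both genotypes in view, so the levels, responses and differences below are a description of the 10 genes and carry no test.

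Jasmonate is a lipid-derived hormone of wounding, defence and growth restraint. Its active form, the conjugate of jasmonic acid with isoleucine, binds the F-box protein COI1 together with a JAZ protein, and the JAZ protein is then degraded, which frees MYC2 and related transcription factors. Most JAZ proteins hold these factors inactive by way of the adaptor NINJA and the co-repressor TOPLESS. Many JAZ genes are themselves switched on by jasmonate through MYC2, so JAZ transcripts are commonly read as an output of the pathway as well as a part of it. In roots, jasmonate is known for slowing elongation.

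The series compared the wild type WS, the Wassilewskija ecotype, with gpa1-2, a null mutant of the heterotrimeric Gα subunit. Roots of each genotype were sampled before ATP treatment, called untreated here, or after 60 min on medium containing ATP, from seedlings grown for 4 days on half-strength MS medium according to the labels. All seedlings shared this medium, light cycle and temperature, and the labels give no ATP concentration. The study's methods and legends differ from the labels and from each other on seedling age and ATP concentration, and the methods name root tips as the tissue. As the untreated roots were taken before the treatment, the transfer and the elapsed time cannot be told apart from the ATP. In RNA from whole root pieces, fewer cells of a type and less RNA per cell cannot be told apart either. The gpa1-2 mutant stands for 1 allele.

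The labels list 8 samples, 2 biological replicates for each of the 4 conditions, whereas the tables hold 1 value per gene and condition. Each number below is therefore the authors' value of a condition, with no replicate spread, no test across replicates and no p-value. The labels and methods describe arrays, while the tables hold scaled counts and FPKM, fragments scaled to transcript length and to library size, and how these were made is not given in the sources used here. The columns carry numbers only. They were assigned to untreated and ATP-treated roots by the direction in which the tables' marked genes match the numbers stated for the study, so the sign of every response rests on that assignment. The study's PCR primer list holds 11 loci that the PCR had raised by ATP in WS. With this assignment, 8 of them were above their untreated level in WS, beside 49.1% of genes at 1 FPKM or more in either condition. The other 3, ERF1, AT4G04570 and AT3G50530, were below it, opposite to the PCR. By at least 1 in log2(FPKM + 1), 4 of the 11 rose and 1 fell. The paper chose its PCR genes from those up-regulated in WS in its expression data, so these counts are no independent check of the assignment. The scaled counts correspond to between 11769875 and 13483769 reads per condition. Intervals given with ratios are exact 95% intervals from these reads and cover counting error only.

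The transcript of the mutated gene, GPA1, was at 51.9 FPKM before and 46.5 FPKM after ATP in WS. In gpa1-2 it stood at 28.6 and 31.1 FPKM. It was lower in both mutant conditions, but not absent. All 9 root markers were at 1 FPKM or more in every condition, and at most 2 of 6 shoot markers reached that level. The summed root markers were higher after ATP, at 220 against 115 FPKM in WS and 193 against 109 in gpa1-2. Most of that came from WOX5, at 2.64 and 50.1 FPKM in WS and 5.29 and 48.1 in gpa1-2, and PIN2, at 40.6 and 90.5 in WS and 36.3 and 64.95 in gpa1-2, and the list median response was 0.19 in WS and 0.48 in gpa1-2. The summed shoot markers went from 12.6 to 9.88 FPKM in the wild type and from 11.04 to 3.18 in the mutant, with 1 to 3 of the 6 at 0 in each condition. The part of these shifts in the JAZ results was not tested.

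In untreated WS roots the JAZ transcripts were abundant and unequal. JAZ1 led with 654 FPKM and ranked 219 among all 33544 genes. JAZ2 followed with 404 FPKM and JAZ10 with 323 FPKM. JAZ9 and JAZ6 stood next at 193 FPKM each, and JAZ3, JAZ7, JAZ12, JAZ8 and JAZ5 lay between 104 and 65.1 FPKM. The highest level was 10.1 times the lowest. By counting intervals, JAZ9 could not be ordered against JAZ6, and each neighbouring pair from JAZ3 down to JAZ5 overlapped.

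**Figure D1:**
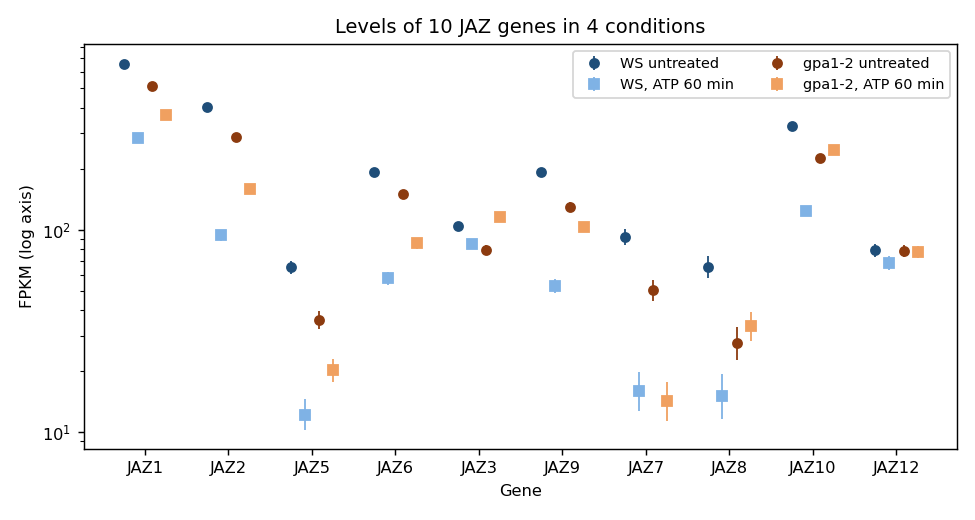
Level of the 10 JAZ genes in FPKM on a log axis, with circles for untreated and squares for ATP-treated roots of WS (blue) and gpa1-2 (orange); bars are 95% Poisson counting intervals and hold no replicate spread. JAZ1 is the highest in every condition, from 284 to 654 FPKM, and JAZ12 stays between 68.6 and 79.0 FPKM.

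The first question is how the JAZ genes responded to eATP in wild-type roots. After 60 min, all 10 JAZ transcripts were below their untreated level in WS, and 8 of them fell by 1 or more in log2(FPKM + 1), about a halving of the level. The exceptions were JAZ3 and JAZ12. Among the 19901 genes at 1 FPKM or more in either WS condition, 4.28% fell by at least 1 and 50.9% were below their untreated value at all. The members were chosen with this contrast known, so nothing is read from the excess. Their median response was -1.80 (range -2.45 to -0.20), beside a median of -0.01 over all these genes.

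JAZ1, JAZ2, JAZ5 and JAZ6 form a sequence subgroup whose proteins act as typical jasmonate-degraded repressors. JAZ1 went from 654 to 284 FPKM in WS, a ratio of reads of 0.434 (0.418 to 0.452). JAZ2, best known from guard cells during bacterial infection, went from 404 to 93.5 FPKM, a ratio of 0.232 (0.217 to 0.247). JAZ5 went from 65.1 to 12.2 FPKM, a ratio of 0.188 (0.154 to 0.227). JAZ6, at 193 and 57.4 FPKM, gave a ratio of 0.298 (0.273 to 0.325). All 4 members of the subgroup fell, and on the log2 scale the responses were -1.20 for JAZ1, -2.10 for JAZ2, -2.32 for JAZ5 and -1.73 for JAZ6.

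JAZ7 and JAZ8 are short proteins with an EAR motif that can contact TOPLESS without NINJA, and JAZ8 lacks the canonical degron and is stable in the presence of jasmonate. JAZ7 went from 91.6 to 16.0 FPKM in WS, the deepest fall of the 10, with a log2 response of -2.45 and a ratio of 0.174 (0.137 to 0.220). JAZ8 went from 65.5 to 15.1 FPKM, a log2 response of -2.05 and a ratio of 0.231 (0.172 to 0.305). JAZ7 and JAZ8 had the fewest reads after ATP in WS, 86 and 62, which gave them the widest intervals in proportion to the ratio.

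JAZ3 and JAZ9 are close in sequence, and a truncated JAZ3 underlies the jasmonate-insensitive jai3 mutant. They did not move alike in WS. JAZ9 went from 193 to 52.5 FPKM, a log2 response of -1.86 and a ratio of 0.272 (0.248 to 0.297). JAZ3 went from 104 to 84.8 FPKM, a log2 response of -0.29 and a ratio of 0.829 (0.770 to 0.892), which did not reach the threshold of 1.

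JAZ10, a feedback repressor whose splice variants differ in their sensitivity to degradation, went from 323 to 124 FPKM in WS. Its log2 response was -1.38 and its ratio 0.364 (0.340 to 0.389). JAZ12, whose protein is held by the ubiquitin ligase KEG, was at 79.0 and 68.6 FPKM. Its log2 response of -0.20 was the smallest of the 10, with a ratio of 0.868 (0.782 to 0.963).

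Ranked from the largest fall, among the 18617 genes with a minimum of 20 reads per genotype, the WS responses stood at place 34 for JAZ7, 43 for JAZ5, 61 for JAZ2 and 70 for JAZ8. JAZ9 stood at place 102, JAZ6 at 135, JAZ10 at 268 and JAZ1 at 400. JAZ3 and JAZ12 were at places 4253 and 5579. The counting interval excluded a ratio of 1 for all 10 genes in WS, and for 46.2% of all genes kept there.

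**Figure D2:**
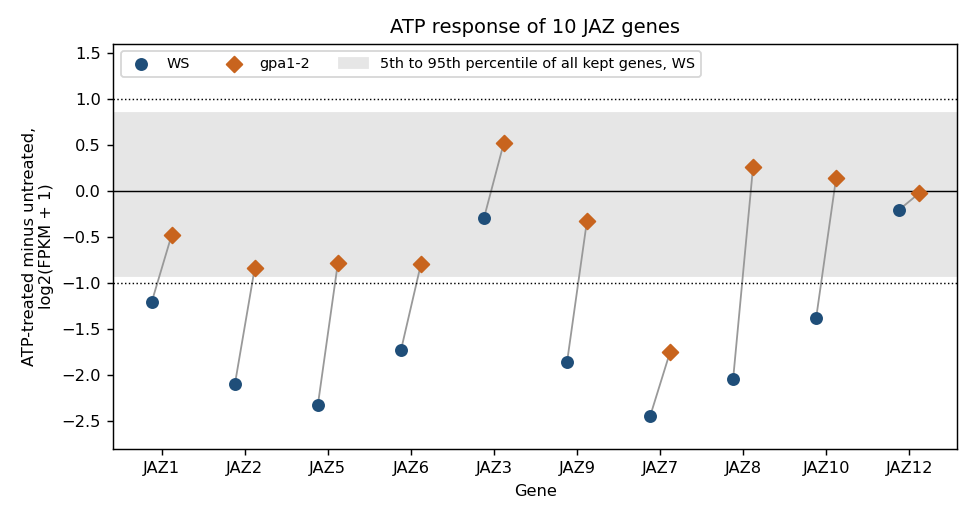
ATP response, the ATP-treated minus the untreated log2(FPKM + 1), of each JAZ gene in WS (circles) and gpa1-2 (diamonds), 1 value per genotype; dotted lines mark the threshold of 1 in either direction and the grey band holds the 5th to 95th percentile of all genes kept in WS. The WS values run from -2.45 to -0.20, and for every gene the gpa1-2 value lies above the WS value.

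The same contrast was then read in the Gα null mutant. In gpa1-2 roots only JAZ7 fell by at least 1, beside 3.78% of the 19865 genes kept there. The other 9 responses lay between -0.83 and 0.53, with 6 of them below 0 and 3 above. In all, 7 of the 10 members were below their untreated level, beside 47.1% of the genes kept. The median response was -0.40, beside 0.03 over all these genes.

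JAZ7 went from 50.3 to 14.2 FPKM in gpa1-2, a log2 response of -1.75 and a ratio of 0.283 (0.219 to 0.363). It stood at place 88 among the falls in the mutant. After ATP its level in gpa1-2 was near the 16.0 FPKM of WS.

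In the JAZ1 subgroup the responses in gpa1-2 were -0.47 for JAZ1, -0.83 for JAZ2, -0.78 for JAZ5 and -0.80 for JAZ6. JAZ1 was at 513 FPKM before and 369 after ATP, a ratio of 0.719 (0.693 to 0.746). JAZ2 was at 285 and 159 FPKM, a ratio of 0.560 (0.530 to 0.591). Each of the 4 was lower after ATP with an interval away from 1, but none reached the threshold. JAZ5 was at 35.7 and 20.3 FPKM, a ratio of 0.569 (0.481 to 0.672). JAZ6 was at 149 and 85.5 FPKM, a ratio of 0.573 (0.532 to 0.618).

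JAZ3, JAZ8 and JAZ10 had positive responses in gpa1-2, the opposite sign to WS. JAZ3 was at 79.3 FPKM before and 115 after ATP, a log2 response of 0.53 and a ratio of 1.47 (1.37 to 1.58). JAZ8 was at 27.6 and 33.3 FPKM, a response of 0.26 and a ratio of 1.204 (0.937 to 1.55), an interval that spans 1. JAZ10 was at 225 and 248 FPKM, a response of 0.14 and a ratio of 1.07 (1.01 to 1.14). None of these 3 values reached the threshold.

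JAZ9 and JAZ12 complete the set. JAZ9 was at 130 and 104 FPKM in gpa1-2, a response of -0.32 and a ratio of 0.797 (0.740 to 0.858). JAZ12 was at 78.4 and 77.2 FPKM, a response of -0.02 and a ratio of 0.984 (0.891 to 1.09). JAZ12 was thus the member with the least movement in both genotypes. In gpa1-2 the counting interval excluded a ratio of 1 for 8 of the 10 genes, all but JAZ8 and JAZ12, and for 49% of all genes kept there.

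Set against each other, the 2 genotypes differed in the size of the response. The fall was larger, or the response more negative, in WS for all 10 genes. For 5 of them, JAZ2, JAZ5, JAZ8, JAZ9 and JAZ10, the WS response was lower by at least 1, beside 2.21% of the 19416 genes kept in both genotypes, of which 54.1% had the lower response in WS. The median difference was -1.10 for the members and -0.04 for all these genes. With 1 value per condition this difference of differences could not be tested.

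JAZ8 had the largest difference of the 10, -2.30, and stood at place 7 of 18617 genes. JAZ5 and JAZ9 both differed by -1.54, JAZ10 by -1.52 and JAZ2 by -1.27. Below the threshold came JAZ6 with -0.93, JAZ3 with -0.82, JAZ1 with -0.73, JAZ7 with -0.70 and JAZ12 with -0.18. A smaller fall in the mutant was common among genes that fell in WS. These genes were picked by their WS response, which is part of the difference, so noise alone favours a smaller fall in gpa1-2. Of the 773 genes that fell by at least 1 in WS and were kept in both genotypes, 26.6% fell less by at least 1 in gpa1-2, beside 5 of the 8 JAZ genes, and 38.7% also fell by at least 1 in gpa1-2, beside 1 of the 8.

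Both ends of the response differed between the genotypes. Before ATP, all 10 JAZ transcripts were lower in gpa1-2 than in WS, although only JAZ8 was lower by at least 1. After ATP, 9 of the 10 were higher in gpa1-2, and again only JAZ8 passed the threshold. The 2 genotypes were deposited as separate tables. The conversion from scaled count to FPKM was the same in both, for example 0.183 for JAZ12 in all 4 conditions. Whether the scaled counts themselves were made together is not given. The median over all genes differed by -0.02 before and 0.01 after ATP, which does not settle the scaling of abundant genes. Under quantile normalization, the difference after ATP went from 0.38 to 0.21 for JAZ1, the most abundant member. The member median after ATP went from 0.63 to 0.57.

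In untreated roots, the share of all genes lower by at least 1 in gpa1-2 was 1.05%, and 53.9% were lower by any amount. The members had a median of -0.51 and a range from -1.22 to -0.01. JAZ8 was the lowest relative to WS, at 27.6 against 65.5 FPKM, a ratio of 0.422 (0.336 to 0.528). JAZ5 and JAZ7 followed, each with a ratio of 0.548, and JAZ12 at 0.993 (0.897 to 1.10) was the one member whose interval spanned 1, where 28.2% of all genes had an interval away from 1. The other 6 ratios ran from 0.671 for JAZ9 to 0.784 for JAZ1.

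In ATP-treated roots, 1.29% of genes were higher by at least 1 in gpa1-2 and 51.9% were higher by any amount. The members had a median of 0.63 and a range from -0.16 to 1.09. JAZ8 was at 33.3 FPKM in gpa1-2 against 15.1 in WS, a ratio of 2.20 (1.63 to 3.01). JAZ10 was at 248 against 124 FPKM, a ratio of 2.01 (1.88 to 2.16), and its difference of 1.00 lay just under the threshold before rounding. JAZ9 had a ratio of 1.97 (1.79 to 2.17). JAZ7 was the exception, with a ratio of 0.890 (0.651 to 1.22) whose interval spanned 1, where 37.7% of all genes had an interval away from 1.

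Lower before ATP and higher after it was the pattern of 9 members, all but JAZ7, and of 28.5% of the 19250 genes kept in both comparisons. The JAZ12 difference before ATP was only -0.01 and turned positive under median centring, upper-quartile scaling and quantile normalization. The share of each end differed by gene. For JAZ8 the mutant was lower by 1.22 before ATP and higher by 1.09 after it. For JAZ9 and JAZ10 the difference after ATP, 0.97 and 1.00, was larger than the 0.57 and 0.52 before it. For JAZ7 the whole difference lay in the untreated level, which was lower by 0.85 in gpa1-2.

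**Figure D3:**
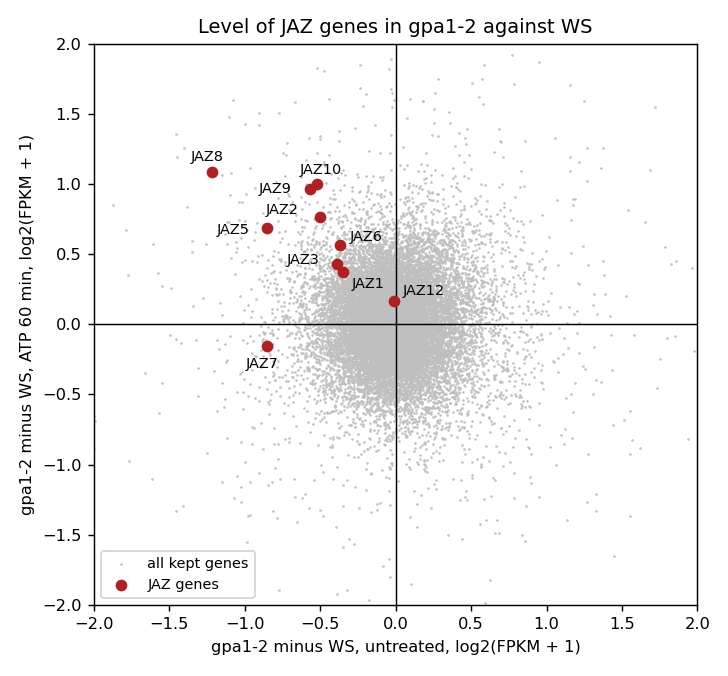
Level in gpa1-2 minus level in WS, in log2(FPKM + 1), for untreated roots (horizontal axis) and ATP-treated roots (vertical axis), with JAZ genes in red and all kept genes in grey; 134 of 19250 genes lie outside the axes. All JAZ genes but JAZ7 lie in the upper left part, where the mutant was lower before ATP and higher after it. JAZ12 lies nearest the origin, at -0.01 before ATP.

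Summed over the 10 genes, JAZ transcript in WS amounted to 2172 FPKM before and 808 FPKM after ATP. In gpa1-2 it amounted to 1573 FPKM before and 1225 FPKM after ATP. This was 0.204%, 0.0783%, 0.149% and 0.108% of all FPKM in those conditions. The ratio of ATP-treated to untreated was 0.372 in WS and 0.779 in gpa1-2. The mutant held 0.724 of the WS sum before ATP and 1.52 of it after ATP.

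The pool also shifted in makeup. JAZ1 supplied between 30.1% and 35.2% of the summed FPKM in each condition, and the 3 most abundant genes together between 62.1% and 65.02%. JAZ3 and JAZ12, the genes with the smallest WS responses, went from 4.79% to 10.5% and from 3.64% to 8.49% of the pool in WS. In gpa1-2 JAZ3 went from 5.04% to 9.37%, JAZ7 from 3.19% to 1.16% and JAZ8 from 1.76% to 2.71%. JAZ2 went from 18.6% to 11.6% in WS and from 18.1% to 13.01% in gpa1-2. JAZ10 supplied 14.9% and 15.3% in WS, and 14.3% and 20.2% in gpa1-2.

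**Figure D4:**
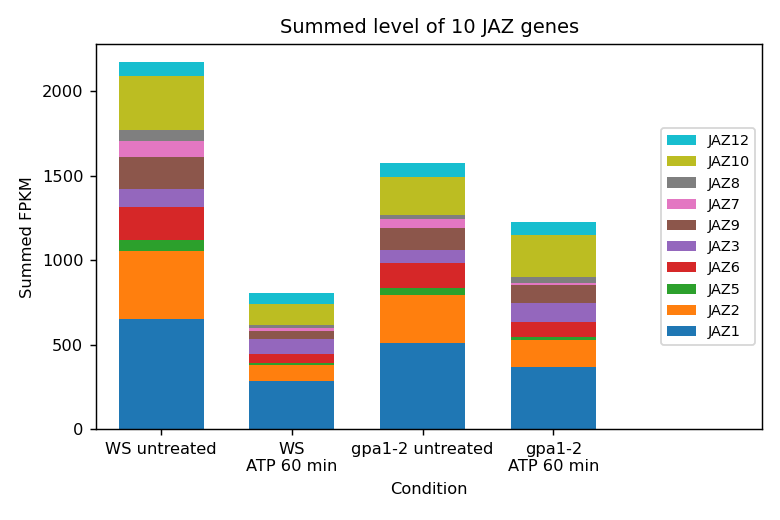
Summed FPKM of the 10 JAZ genes in the 4 conditions, stacked by gene, with bars starting at 0 and 1 value per condition. The WS bars reach 2172 FPKM before and 808 after ATP and the gpa1-2 bars 1573 and 1225, with JAZ1 as the largest block in each bar.

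The ratio of FPKM to scaled count depends on the transcript length assigned to a gene, so it shows whether the assigned mix of isoforms moved. For JAZ10 this ratio was 0.185 before and 0.194 after ATP in WS, and 0.189 before and 0.193 after ATP in the mutant. It was higher by 5.07% after ATP in WS and by 2.47% in gpa1-2, which corresponds to a shorter assigned length. Of the 12140 genes that reached 100 reads per condition, 0.964% moved by 4% or more in WS. JAZ3 moved by -1.63% in WS and -1.65% in gpa1-2, where 6.39% and 6.23% of these genes moved by 1% or more. The other 8 members moved by less than 0.15%. JAZ10 and JAZ12 overlap other annotated genes in RefSeq, including AIP2 next to JAZ12, and whether strand was used in counting is not given, so reads of overlapping genes cannot be told apart there.

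The remaining relatives of the family behaved differently from one another. JAZ4 was nearly silent, at 1.36 and 3.87 FPKM in WS and 1.53 and 2.85 in gpa1-2, from 17 to 51 reads, with responses of 1.05 and 0.61. JAZ11, the closest relative of JAZ12, was at 21.8 and 18.7 FPKM in WS and 22.4 and 24.7 in gpa1-2, with responses of -0.22 and 0.14. The locus AT3G22275, which overlaps AT3G22270 in the annotation, went from 51.7 to 5.23 FPKM in WS, and in gpa1-2 from 36.3 to 14.8, responses of -3.08 and -1.23. That WS response was more negative than that of any of the 10 members. The TIFY relatives outside the JAZ group (PPD1, PPD2, TIFY8, ZIM, ZML1 and ZML2) share the family's domain, and 0 of 6 changed by 1 in either genotype, with a median of -0.16 in both.

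Other genes of the jasmonate pathway were read from lists by role, beside the 3.75% of all kept genes that rose by at least 1 in WS and the 3.6% in gpa1-2. Of 11 genes of jasmonate reception and repression, 0 rose and 2 fell by at least 1 in each genotype, and the list medians were 0.02 in WS and -0.27 in gpa1-2. Both were transcription factor genes, MYC2, the main activator held by JAZ proteins, and JAM1, a related bHLH repressor. MYC2 went from 274 to 74.4 FPKM in WS, and in gpa1-2 from 217 to 80.5, responses of -1.87 and -1.42. JAM1 went from 60.1 to 10.2 FPKM in WS, and in gpa1-2 from 40.6 to 13.3, responses of -2.45 and -1.54. MYC2 and JAM1 thus passed the threshold in both genotypes, as JAZ7 did among the 10 members and AT3G22275 outside them. The receptor gene COI1 had responses of -0.42 and -0.56.

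Of the 14 synthesis genes, 12 were kept in both genotypes. In WS 2 rose and 4 fell, and in gpa1-2 3 rose and 1 fell, with medians of -0.26 and 0.35. The lipoxygenase gene LOX4, for an early step, went from 41.8 to 4.66 FPKM in WS, and in gpa1-2 from 26.8 to 7.34, responses of -2.92 and -1.73. LOX3 went from 12.9 to 2.66 FPKM in WS and was at 9.66 and 8.52 in gpa1-2, a response of -1.92 against -0.16, a contrast like that of JAZ9. JAR1, which conjugates jasmonic acid to isoleucine, rose in both, from 63.0 to 179 FPKM in WS, and in gpa1-2 from 60.95 to 192. The allene oxide cyclase gene AOC1 rose in gpa1-2 with a response of 1.81, beside 0.34 in WS.

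Of the 10 genes listed for jasmonate breakdown, 9 were kept, and 5 rose in WS and 6 in gpa1-2, with none that fell and medians of 1.02 and 1.10. In WS 7 of the 9 were above 0, beside 49.1% of all kept genes, and in gpa1-2 all 9 were, beside 52.9%. AT2G38240 went from 16.4 to 267 FPKM in WS, and in gpa1-2 from 15.5 to 241, responses of 3.94 and 3.88. ST2A, a sulfotransferase of hydroxylated jasmonate, had responses of 2.07 and 1.38, JRG21 had 1.42 and 2.85, and AT5G05600 had 1.05 and 1.18. Of the 8 output genes, 5 were kept in WS and 4 in gpa1-2. In WS 0 rose and 1 fell, and in gpa1-2 1 rose and 1 fell, with medians of -0.26 and -0.05. The gene that fell in both was ERF1, a transcription factor gene of the joint ethylene and jasmonate branch. Its responses were -3.24 and -2.73, opposite to the study's PCR. TAT3, a tyrosine aminotransferase gene, rose in gpa1-2 with 1.95 beside 0.83 in WS. PDF1.2 and THI2.1 were listed at 0.

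**Figure D5:**
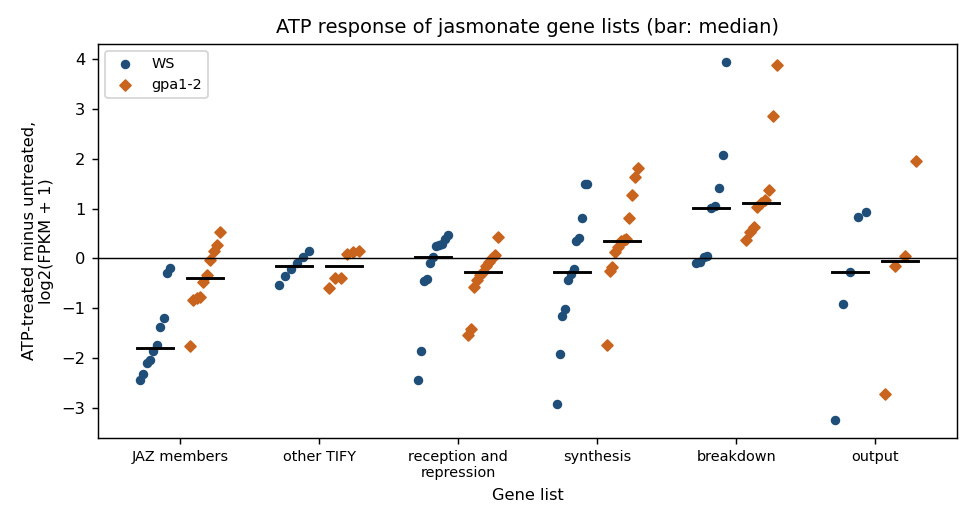
Response to ATP in log2(FPKM + 1) for each kept gene of the JAZ set and of the other lists, in WS (circles) and gpa1-2 (diamonds), with black bars at the list medians. The JAZ medians are -1.80 in WS and -0.40 in gpa1-2, the other TIFY genes lie near 0, and the breakdown list has medians of 1.02 and 1.10.

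Genes outside the family with patterns closest to JAZ genes were sought by Euclidean distance of centred log2(FPKM + 1) over the 4 conditions, among 11577 genes averaging 10 FPKM or more with 20 or more reads per genotype. For JAZ8, the member with the largest genotype difference, the nearest were MAPKKK21 (distance 0.223), AT1G76640 (0.300), AT3G53600 (0.320), MAPKKK19 (0.345) and BHLH92 (0.492). The median distance of the members to JAZ8, counting JAZ8 itself, was 0.795. The named genes were picked as the nearest among 11577, so their distances cannot be compared with that median. MAPKKK21 was at 40.6 and 8.998 FPKM in WS and 14.9 and 16.8 in gpa1-2. For the mean pattern of the members, the nearest were DIP2 (0.0959), PEPR2 (0.0977), AT4G27652 (0.115), KCO6 (0.136) and AT5G17350 (0.150). PEPR2, a receptor gene for endogenous Pep peptides, was at 28.2 and 8.42 FPKM in WS and 18.4 and 12.7 in gpa1-2. None of these 10 genes was in the jasmonate lists, which hold only a few of the 11577 genes, so nothing is read from this.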

How the data were processed

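According to the labels, total RNA was taken from roots of WS and gpa1-2 seedlings. The authors deposited 1 table per genotype with a gene count and an FPKM value for each condition. The deposited gene counts are a scaled signal, not whole reads, and the deposited FPKM values carry the same scaling. Aligner, genome build and counting tool are not given in the sources used here. The tables' own fold changes, p-values and false discovery rates are the authors' comparisons and were not used. All columns of per-sample values were accounted for (0 unused).

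Reads were recovered by dividing scaled counts by their step, and between 98.9% and 99.3% of values up to 20 reads were then whole within 0.1. The steps came in 2 sizes, for 2 parts of the reads. In genes of 16 reads the parts were equal in 79.5% to 86.4% of cases, against 10.99% to 14.4% in genes of 8 reads, so the parts were not used as replicates.

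Genes at 1 FPKM or more in either condition were kept, a pseudocount of 1 was added, and a change was a log2 difference of at least 1 in size. Ratios were taken from reads with exact (Clopper-Pearson) 95% intervals, and levels with exact Poisson intervals. Of the table's identifiers, 32797 matched RefSeq TAIR10.1, which gave gene symbols. All members, all other annotated JAZ and TIFY genes and GPA1 were named, with up to 4 genes per jasmonate list with at least 20 reads and a change in either genotype, largest first, and the 5 genes nearest in pattern to JAZ8 and to the members' mean. COI1, PDF1.2, THI2.1, WOX5 and PIN2 were named outside this rule, and the PCR primer loci were looked up, after values were seen. The members and lists were chosen with earlier results of these data known. Alternatives were other pseudocounts, filters, thresholds and scalings, scaled counts in place of FPKM, and intervals from 0.5 of the reads. Python 3.11.15, numpy 2.4.6, pandas 2.3.3 and scipy 1.17.1 were used, and the functions were tested on simulated data.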

Additional observations from a re-analysis of the deposited data

Results flagged for a closer look

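For 3 of the 10 genes the response to ATP had opposite signs in the genotypes, negative in WS and positive in gpa1-2. The difference between the WS and gpa1-2 responses in log2(FPKM + 1) was -0.82 for JAZ3, -2.30 for JAZ8 and -1.52 for JAZ10. With 1 value per condition, these differences were not tested. In gpa1-2 the counting interval of the JAZ8 ratio spanned 1, so its positive sign there is not settled even at the level of counting. The JAZ10 response in gpa1-2 became -0.02 under quantile normalization. With 0.5 of the reads the interval of the JAZ10 ratio there, 0.990 to 1.17, also spanned 1.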

How the results depend on the processing

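No paired analysis was possible because the tables hold 1 value per condition and carry no replicate numbers, and for the same reason no replicate could be left out. With a threshold of 2, the members changed were 4 in WS and 0 in gpa1-2, 1 differed in response, and 0 differed between genotypes before or after ATP. Quantile normalization gave 2 changed members in gpa1-2, a median gpa1-2 response of -0.57 and a median difference of -0.92. In ATP-treated roots the count of members differing between genotypes was 2 with a pseudocount of 0.1, 0 with a pseudocount of 5, and 2 with scaled counts in place of FPKM. None of the counts and medians reversed. Among single values, the JAZ10 response in gpa1-2 became -0.02 under quantile normalization, and the JAZ12 difference in untreated roots became 0.01, 0.02 and 0.05 under median centring, upper-quartile scaling and quantile normalization. With intervals from 0.5 of the reads, the members away from a ratio of 1 numbered 9 in WS and 7 in gpa1-2. Alternatives added after seeing the data, a minimum of 20 reads and medians without JAZ8 or with JAZ4, JAZ11 and AT3G22275, left 8 members changed in WS and 1 in gpa1-2 and gave medians of -1.73 for the WS response and -0.93 for the difference under either change of members. The fewest reads of a member were 62, for JAZ8 in ATP-treated WS, and 83 for JAZ7 in ATP-treated gpa1-2.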
